A study of Homo sapiens with 8 samples.

Results

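The 10 genes described here drive or regulate the cell cycle. They are the G1 and G1/S genes CCND1, CCNE1, CCNE2 and CDK2 and the G2/M genes CCNA2, CCNB1, CCNB2, CDK1, CDC25C and CDC20. They were chosen by name, are 10 of the 19974 protein-coding genes on chromosomes 1 to 22 and X, and were followed through every accessible-chromatin peak within the gene and 5 kb either side. The assay was ATAC-seq: the Tn5 transposase cuts exposed DNA and leaves sequencing adapters at the cuts. The 8 libraries came from hTERT RPE-1, a telomerase-immortalised human retinal pigment epithelial line. Its genotype was Plk1-/- EGFP-Plk1as, so endogenous Plk1 was absent and an EGFP-tagged analog-sensitive Plk1 took its place. All cells had been held in prometaphase with 5 µM STLC, an inhibitor of the spindle motor Eg5, for 16 hours and collected by shake-off. For a further 2 hours, with STLC still present, 4 samples were given 0.5% DMSO and the other 4 samples 10 µM 3MB-PP1, and over 95% of the cells in each sample were mitotic. 3MB-PP1 is a bulky relative of the kinase inhibitor PP1 that blocks the analog-sensitive kinase. The comparison therefore asked how these loci appear in mitotic cells with and without Plk1 activity. The labels call the 4 libraries of a group biological replicates and name 1 cell line.

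Cyclins are the regulatory subunits of cyclin-dependent kinases (CDKs), and each pair acts in its own window of the cycle. Cyclin D1 and the E cyclins act in G1 and at entry into S phase, cyclin A from S phase onward, and B cyclins with CDK1 at mitotic entry. CDC25C removes inhibitory phosphates from CDK1, and CDC20 activates the anaphase-promoting complex, which sends cyclin B for degradation. Plk1 acts in the same circuit, where CDC25C is among its substrates. Many G2/M gene promoters carry CCAAT boxes, bound by NF-Y, and the cell-cycle genes homology region (CHR), bound by MuvB complexes.

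The promoters of 5 of these genes are printed here because they hold the sequences on which the start-site peaks lay. 7 of the 10 genes had an entry in the RefSeq promoter table (GRCh38.p14). CCND1, CCNE2 and CDK2 had none. Each line gives the 150 bases upstream of the outermost annotated start, 5′ to 3′ on the gene's strand. Capitals mark matches on either strand to the CCAAT box (CCAAT), the CHR (TTTGAA, with TTCGAA also searched) and the SP1 site (GGGCGG). On the opposite strand a CCAAT box reads ATTGG and an SP1 site reads CCGCCC.
CDC20, chr1:43358831-43358980, plus strand: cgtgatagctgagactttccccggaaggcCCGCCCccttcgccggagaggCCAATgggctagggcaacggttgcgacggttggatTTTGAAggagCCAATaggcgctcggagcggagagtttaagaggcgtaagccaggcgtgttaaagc
CCNA2, chr4:121823884-121824033, minus strand: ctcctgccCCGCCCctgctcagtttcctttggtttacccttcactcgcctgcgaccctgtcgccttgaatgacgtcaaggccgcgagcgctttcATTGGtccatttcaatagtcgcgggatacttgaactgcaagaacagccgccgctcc
CCNB1, chr5:69167000-69167149, plus strand: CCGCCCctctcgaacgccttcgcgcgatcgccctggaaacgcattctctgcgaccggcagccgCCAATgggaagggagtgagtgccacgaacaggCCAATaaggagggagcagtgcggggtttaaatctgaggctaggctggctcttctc
CCNB2, chr15:59104996-59105145, plus strand: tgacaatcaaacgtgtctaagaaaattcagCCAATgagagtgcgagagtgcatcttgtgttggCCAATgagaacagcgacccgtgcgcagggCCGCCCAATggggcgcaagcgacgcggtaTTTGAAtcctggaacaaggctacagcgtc
CCNE1, chr19:29811841-29811990, plus strand: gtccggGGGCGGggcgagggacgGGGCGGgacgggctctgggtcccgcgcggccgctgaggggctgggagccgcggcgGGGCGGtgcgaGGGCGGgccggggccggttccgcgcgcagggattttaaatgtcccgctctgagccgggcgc

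Over the full 250 upstream bases in the table, CCNB2 held 4 CCAAT boxes, 1 CHR match and 1 SP1 site, and its SP1 site overlapped the CCAAT box nearest the start. CDC20 held 2 CCAAT boxes, 2 CHR matches and 2 SP1 sites. CCNB1 held 2 CCAAT boxes and 1 SP1 site, and CCNA2 held 1 CCAAT box and 3 SP1 sites. CCNE1 held 7 SP1 sites and neither of the other motifs, in a stretch with a GC content of 81.2%. CDK1 held 1 match to each of the CCAAT box, CHR and SP1 site at its outermost start. Its annotated inner start held 2 CCAAT boxes, 2 CHR matches, 2 SP1 sites and 1 E2F match. The outermost start of CDC25C held 2 SP1 sites only. Of its 3 annotated inner starts, the one at chr5:138331804 held 1 CCAAT box, 1 CHR match and 1 SP1 site. The nearby start at chr5:138331877 held 3 CCAAT boxes, 1 SP1 site and no CHR match, and the one at chr5:138338341 held 2 SP1 sites only. Among 22156 promoters of protein-coding genes, 32.7% held CCAAT, 12.1% the CHR, 53.7% the SP1 site and 3.48% an E2F site (TTTCGCGC, TTTGGCGC, TTTCCCGC or TTTGCCGC) in the same length. A match is a description of the letters and not of binding. Only these exact letters in the 250 bases upstream of each start were searched, so other forms of a motif are not counted.

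These upstream bases lay under the peaks for most of the genes. All 250 bases were inside a peak in 8 of 8 lists for CCNA2, CCNB1, CDC20 and CDC25C, in 7 for CCNE1 and in 6 for CCNB2. CDK1 differed, with 111 to 245 of the 250 bases under a peak and 0 lists covering them all, whereas the bases upstream of its inner start were wholly covered in 8 lists. The CDK1 peak thus lay mostly downstream of the outermost start.

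Each library has 1 deposited list of MACS2 peaks, with 150577 to 199042 peaks in the DMSO lists and 170682 to 252752 in the 3MB-PP1 lists. Read totals were not used here, so the depth is unknown and no value could be scaled by it. Median peak length was 355 to 409 bp in the DMSO lists and 269 to 324 bp in the 3MB-PP1 lists. Odd-numbered replicates had 0.868% to 0.933% of their peaks on chromosome X and even-numbered ones 0.595% to 0.694%, in both groups, so differences are also given within odd and even numbers. Of the retinal pigment epithelium markers, MITF and OTX2 had a start-site peak in 8 lists and RPE65, RLBP1, BEST1 and TYRP1 in 0 to 3. The keratins KRT8 and KRT18 had one in 8, and 0 of 6 markers of other lineages did (PTPRC and ALB in 0 lists, HBB in 7, SOX10 in 6).

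A start-site peak was any peak overlapping 1 kb either side of the outermost annotated gene start. For CCND1, CCNE2 and CDK2, whose strand was not in the table, peaks at both annotated ends were taken. All 10 genes had a start-site peak in 8 of 8 lists, from G1 cyclins to CDC20, where 57.3% of protein-coding genes did. With peaks held to a -log10 q of at least 5, the number was 5 of 10 (CCNE2, CDK2, CCNA2, CCNB2 and CDK1), and 28.0% of all genes. CDK2 was among them through the peak at its higher-coordinate end, which lies at the start of the neighbouring gene RAB5B. The peak at its lower-coordinate end fell short in 3MB-PP1 replicates 2 (4.35) and 4 (2.67). CCNB1, CDC25C and CDC20 passed that minimum in 6 lists and CCND1 in 5. By treatment, CCNB1 passed in 3 DMSO and 3 3MB-PP1 lists, CDC25C and CDC20 in 4 and 2, and CCND1 in 4 and 1. The share of all genes by treatment was not computed. CCNE1 passed it in 0 lists, with its values running from 2.07 to 4.92. The peak of CDK1 was among the most certain, with a -log10 q of 13.9 to 45.6.

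Start-site peaks had a shorter mean length in base pairs in the 3MB-PP1 lists for 10 of 10 genes. For CCND1 this came from its higher-coordinate end, and the region at its lower-coordinate end was 67 bp longer on average. The longest start-site peak of each gene, ranked within its own list, nevertheless stood higher in 9 of 10 (8 of 10 with the CDK2 peak at RAB5B left out). By that rank, 23.9% of the genes with a start-site peak in all 8 lists had a lower mean with 3MB-PP1. In base pairs the groups did not overlap for 3 of the 10, CDK2, CCNA2 and CDC20. Over all 17455 protein-coding genes with a start-site peak in any list, every 3MB-PP1 list was shorter than every DMSO list for 9.20% and longer for 0.441%. A list without such a peak entered with a length of 0 bp. The median difference was -122.5 bp over the 10 genes and -117.25 bp over all genes, 74.1% of which were shorter. The median of the cell-cycle genes was thus close to that of this set, which also holds genes lacking a peak in some lists. The test was a two-sided exact permutation of libraries between the groups (70 assignments), where the smallest possible p is 0.0286, with Benjamini-Hochberg adjustment over all genes. No gene of the 17455 had an adjusted p of 0.05 or less (the smallest was 0.296), while 1683 had an unadjusted p under 0.05. An adjusted p of 0.05 would have needed 57.1% of genes at the smallest p.

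**Figure D1:**
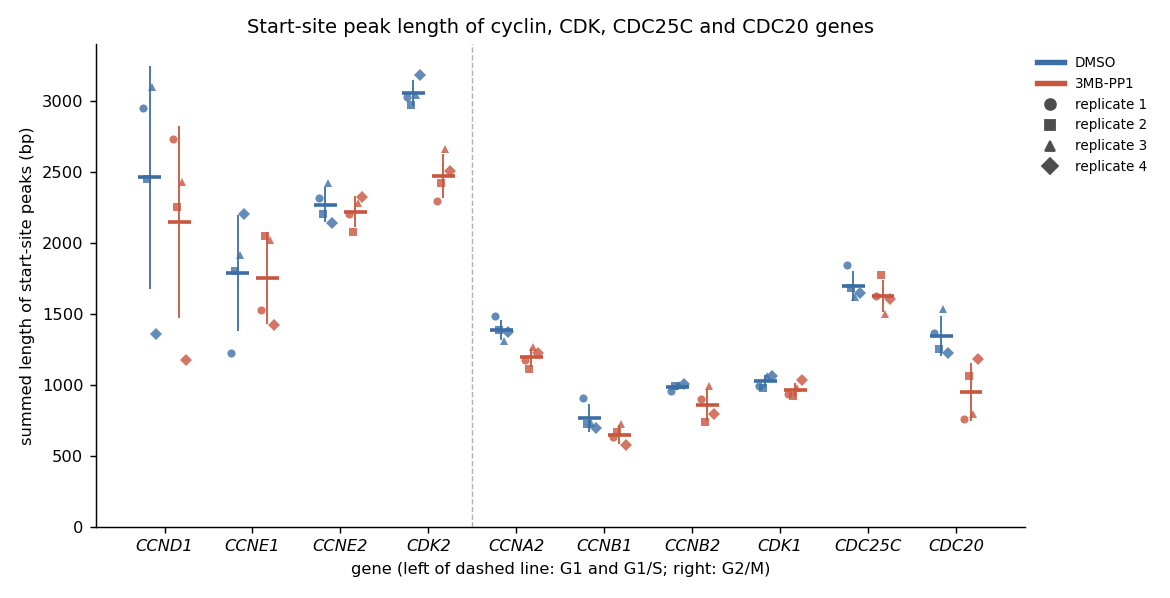
Summed length of the start-site peaks (y axis, base pairs, from 0) for each gene (x axis), with 1 point per library, shaped by replicate number, and horizontal bars and vertical lines for the mean and SD of 4 libraries. The DMSO and 3MB-PP1 points separate for CDK2, CCNA2 and CDC20 and overlap for the other 7 genes.

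Among the G2/M genes, CDC20 had the largest shortening as a share of its length. Its start-site peak, within chr1:43358146-43359752, spanned 1364, 1255, 1531 and 1225 bp in DMSO replicates 1 to 4 and 758, 1064, 794 and 1183 bp in 3MB-PP1 replicates 1 to 4. The longest 3MB-PP1 peak, 1183 bp in replicate 4, lay just under the shortest DMSO peak. The mean was 1344 ± 138 bp with DMSO and 950 ± 207 bp with 3MB-PP1 (SD, n = 4 each). The difference was -394 bp or -29.3% (exact permutation p = 0.0286, adjusted p = 0.296). Among odd-numbered replicates it was -671.5 bp, and among even-numbered ones -116.5 bp. Ranked by length within its own list, the same peak stood at percentiles of 91.7 ± 1.70 and 91.1 ± 2.90 (SD, n = 4 each), which overlapped. By the rank of the longest start-site peak, CDC20 was the only one of the 10 with a lower mean with 3MB-PP1, and CDK2 joined it when its lower-coordinate end was ranked alone (88.6 ± 1.34 with DMSO, 87.5 ± 3.39 with 3MB-PP1, SD, n = 4 each). The peak also overlaps CDC20-DT, a divergent transcript.

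CCNA2, which encodes the cyclin A of somatic cells, had 1 peak in its whole window in each of the 8 lists. That peak, within chr4:121822942-121824423, was 1482, 1387, 1309 and 1370 bp long with DMSO and 1177, 1109, 1267 and 1223 bp with 3MB-PP1. All 4 DMSO lengths lay above all 4 3MB-PP1 lengths. The means were 1387 ± 71.6 and 1194 ± 67.5 bp (SD, n = 4 each), a difference of -193 bp or -13.9% (exact permutation p = 0.0286, adjusted p = 0.296). The difference was of like size in odd-numbered (-173.5 bp) and even-numbered (-212.5 bp) replicates. The peak reaches into BBS7, which neighbours CCNA2. Its length rank had a higher mean with 3MB-PP1 (94.8 ± 0.951 against 92.4 ± 1.84, SD, n = 4 each), with overlapping groups.

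CCNB1 and CCNB2 encode the B cyclins that pair with CDK1 at mitotic entry. The CCNB1 peak, within chr5:69166730-69167638, was the shortest of the 10, at 909, 727, 729 and 694 bp with DMSO and 630, 668, 726 and 573 bp with 3MB-PP1. DMSO replicate 1 stood above the rest, and the 726 bp of 3MB-PP1 replicate 3 exceeded the lowest DMSO value. The means were 765 ± 97.5 and 649 ± 64.4 bp (SD, n = 4 each), and the difference of -115.5 bp had an exact permutation p of 0.0571 and an adjusted p of 0.356. The CCNB2 peak, within chr15:59104739-59105750, was 953, 989, 999 and 1004 bp long with DMSO and 900, 740, 990 and 797 bp with 3MB-PP1. The DMSO lengths were closely grouped, with an SD of 23.0 bp against 111 bp for 3MB-PP1, and 3MB-PP1 replicate 3 lay inside them. The difference was -129.5 bp (exact permutation p = 0.0857, adjusted p = 0.402), with -31 bp among odd-numbered and -228 bp among even-numbered replicates.

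CDK1, the mitotic kinase itself, had a start-site peak within chr10:60778086-60779157. It measured 994, 980, 1062 and 1059 bp with DMSO and 936, 922, 974 and 1033 bp with 3MB-PP1. The groups overlapped through 3MB-PP1 replicate 4. The means were 1024 ± 42.8 and 966 ± 49.6 bp (SD, n = 4 each), and the difference of -57.5 bp, or -5.62%, had an exact permutation p of 0.114 and an adjusted p of 0.447. For CDC25C the outermost start-site peak, within chr5:138337380-138339322, also covers the start of the neighbouring gene FAM53C. It was 1845, 1681, 1616 and 1643 bp long with DMSO and 1623, 1772, 1496 and 1605 bp with 3MB-PP1. These ranges overlapped (means 1696 ± 103 and 1624 ± 113 bp, SD, n = 4 each, difference -72.25 bp, exact permutation p = 0.371), and even-numbered replicates differed by 26.5 bp the other way. The peak over the inner CDC25C start, chr5:138331079-138332503, was 1119 to 1227 bp with DMSO and 861 to 1302 bp with 3MB-PP1.

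Of the G1 and G1/S genes, only CDK2 had groups that did not overlap. CDK2, the kinase partner of cyclins E and A, had summed lengths of 3027, 2972, 3041 and 3182 bp with DMSO and 2294, 2423, 2659 and 2503 bp with 3MB-PP1. The lowest DMSO library, 2972 bp, stood well clear of the highest 3MB-PP1 library, 2659 bp. The means were 3056 ± 89.4 and 2470 ± 153 bp (SD, n = 4 each), and the difference was -585.75 bp or -19.2% (exact permutation p = 0.0286, adjusted p = 0.296), with -557.5 bp among odd-numbered and -614 bp among even-numbered libraries. 2 regions made up this sum, joined in DMSO replicate 4 by a short separate peak upstream of the gene's lower-coordinate end. The one at the lower-coordinate end of CDK2, chr12:55966294-55967649, overlaps PMEL and was 1223, 1129, 1176 and 1080 bp with DMSO against 650, 701, 899 and 921 bp with 3MB-PP1. On its own this region also separated the groups, at 1152 ± 61.5 against 793 ± 137 bp (SD, n = 4 each; exact permutation p = 0.0286, adjusted p = 0.254 over regions of all 8 lists). The other, chr12:55972888-55974782, lies at the start of RAB5B, and its lengths of 1727 to 1865 bp with DMSO and 1582 to 1760 bp with 3MB-PP1 overlapped. Ranked by length within each list, the longest CDK2 peak, which is the RAB5B one, was higher in every 3MB-PP1 list (97.63 to 98.7) than in any DMSO list (95.7 to 97.62). The peak at the lower-coordinate end ranked 87.8 to 90.6 with DMSO and 84.7 to 91.4 with 3MB-PP1, with overlapping groups and a lower mean with 3MB-PP1.

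CCND1, encoding cyclin D1, had the widest spread between replicates. Its summed lengths were 2946, 2447, 3094 and 1358 bp with DMSO and 2728, 2254, 2429 and 1172 bp with 3MB-PP1. Replicate 4 was the lowest in both groups, and the difference of -315.5 bp was under 1 SD (786 and 678 bp, n = 4 each; exact permutation p = 0.514). The region at its lower-coordinate end was 749 to 1301 bp with DMSO and 718 to 1530 bp with 3MB-PP1, a difference of 67 bp. The region at the higher-coordinate end was 609 to 1793 and 454 to 1198 bp, a difference of -382.5 bp. The sign of the CCND1 sum therefore came from the higher-coordinate end.

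The E cyclins, CCNE1 and CCNE2, had the smallest relative differences, -1.85% and -2.20%, beside a median of -11.4% over the genes with a start-site peak in all 8 lists. CCNE1 peaks summed to 1226, 1804, 1911 and 2201 bp with DMSO and 1524, 2045, 2018 and 1423 bp with 3MB-PP1. The 2 ranges overlapped almost fully (means 1786 ± 409 and 1752 ± 325 bp, SD, n = 4 each, difference -33 bp, exact permutation p = 0.971), with 202.5 bp among odd-numbered and -268.5 bp among even-numbered replicates. CCNE2 peaks, which also overlap NDUFAF6, were 2316, 2205, 2418 and 2138 bp with DMSO and 2201, 2073, 2282 and 2321 bp with 3MB-PP1. These overlapped as well (means 2269 ± 123 and 2219 ± 110 bp, SD, n = 4 each, difference -50 bp, exact permutation p = 0.6).

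**Figure D2:**
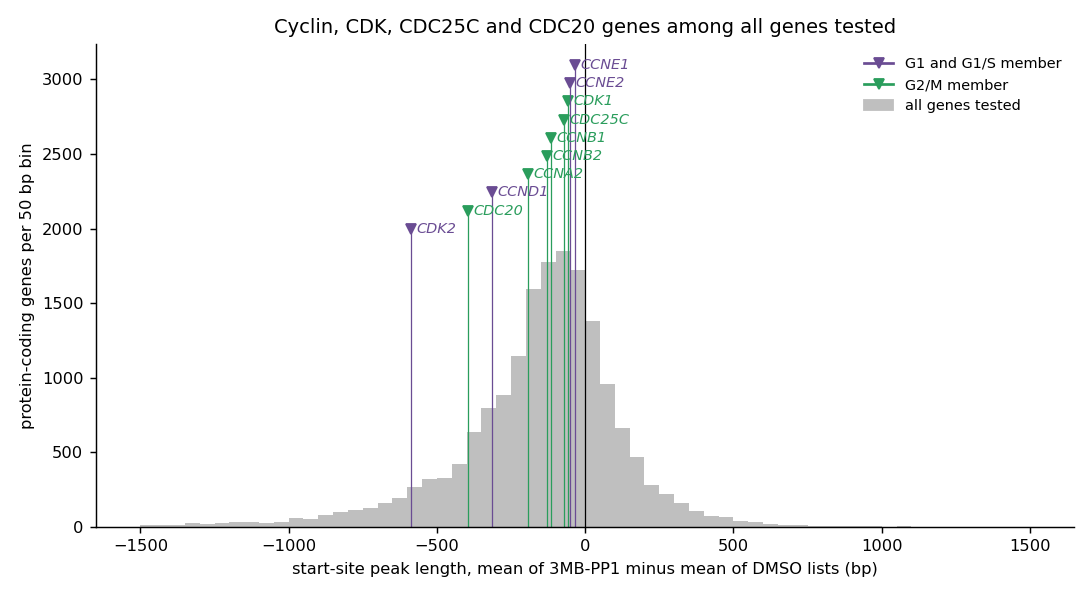
Histogram of the difference in mean start-site peak length (x axis, 3MB-PP1 minus DMSO, base pairs) over protein-coding genes (y axis, genes per 50 bp bin, grey), with a marked line for each of the 10 genes. CDK2 at -585.75 bp, CDC20 at -394 bp and CCND1 at -315.5 bp lie below the lower quartile of all genes, -277.25 bp. The other 7 lie between -193 and -33 bp, and 78 genes below the axis range are not drawn.

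The shortening in base pairs and the rank by length went in different directions for most of the genes. Percentiles were taken for the longest start-site peak among all peak lengths of the same list, and these had a smaller median with 3MB-PP1. CCND1 and CDK2 had more than 1 start-site peak, so their rank and their summed length describe different things, and the other 8 genes had 1 in each list. The mean percentile was higher with 3MB-PP1 for 9 of 10 genes, and for CCNE2, CDK2, CDK1 and CDC25C every 3MB-PP1 list was above every DMSO list. For CDK2 this was the peak at RAB5B. At its lower-coordinate end alone the groups overlapped, with a lower mean with 3MB-PP1. Across the 11448 genes with a start-site peak in all 8 lists, 21.4% were higher in this way and 1.21% lower. A lower mean percentile held for 23.9% of them. For CDK1 the percentiles were 82.7, 84.6, 85.4 and 90.2 with DMSO and 91.9, 90.7, 92.7 and 91.6 with 3MB-PP1. The peak of CDK1 was thus shorter in base pairs on average and longer relative to its list. The difference of 6.01 points had an exact permutation p of 0.0286 and an adjusted p of 0.126, and the median difference was 2.37 points over the 10 genes and 1.62 over all genes.

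Pileup, the coverage at a peak's summit, was compared as a percentile within each list, since its scaling between libraries is not given. By this measure 0 of the 10 genes separated in either direction, where 1.45% of 11448 genes were lower in every 3MB-PP1 list and 3.90% higher. The mean was lower with 3MB-PP1 for 5 of 10 genes and for 48.9% of the 11448. The median difference was 0.0596 points beside 0.0099 over all genes. No gene of the 11448 had an adjusted p of 0.05 or less (smallest 0.534), with 613 at an unadjusted p under 0.05. CDK2 ranked highest, at 99.9 in all 8 lists, through the summit at RAB5B. The region at its other end ranked from 94.2 to 96.2 with DMSO and 90.4 to 97.3 with 3MB-PP1. CCNE2 ranked 98.0 to 98.6 and 98.5 to 98.8, CDK1 97.6 to 98.4 and 97.4 to 98.1, and CCND1 97.0 to 97.5 and 96.5 to 98.1. CDC20, shorter in base pairs in every 3MB-PP1 list, ranked 94.6, 93.3, 95.7 and 95.1 with DMSO and 95.3, 95.7, 97.7 and 91.7 with 3MB-PP1, so its summit rank spanned the DMSO range on both sides.

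CCNA2 ranked from 96.2 to 97.6 with DMSO and from 95.6 to 98.1 with 3MB-PP1, and CCNB2 from 96.2 to 97.2 and from 94.5 to 96.8. CDC25C had the lowest p for pileup rank among the 10, with percentiles of 94.6, 95.3, 96.1 and 94.2 with DMSO and 94.1, 92.8, 95.1 and 92.5 with 3MB-PP1. Its difference of -1.44 points had an exact permutation p of 0.114 and an adjusted p of 0.646, and the groups overlapped. CCNE1 ranked lowest, at 86.9, 86.3, 86.2 and 83.5 with DMSO and 89.4, 82.6, 84.4 and 75.4 with 3MB-PP1. CCNB1 varied most between DMSO replicates, at 91.6, 92.7, 94.1 and 80.6, and ran 95.8, 91.6, 95.2 and 82.5 with 3MB-PP1. Replicate 4 was the lowest for both CCNE1 and CCNB1 in each group.

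**Figure D3:**
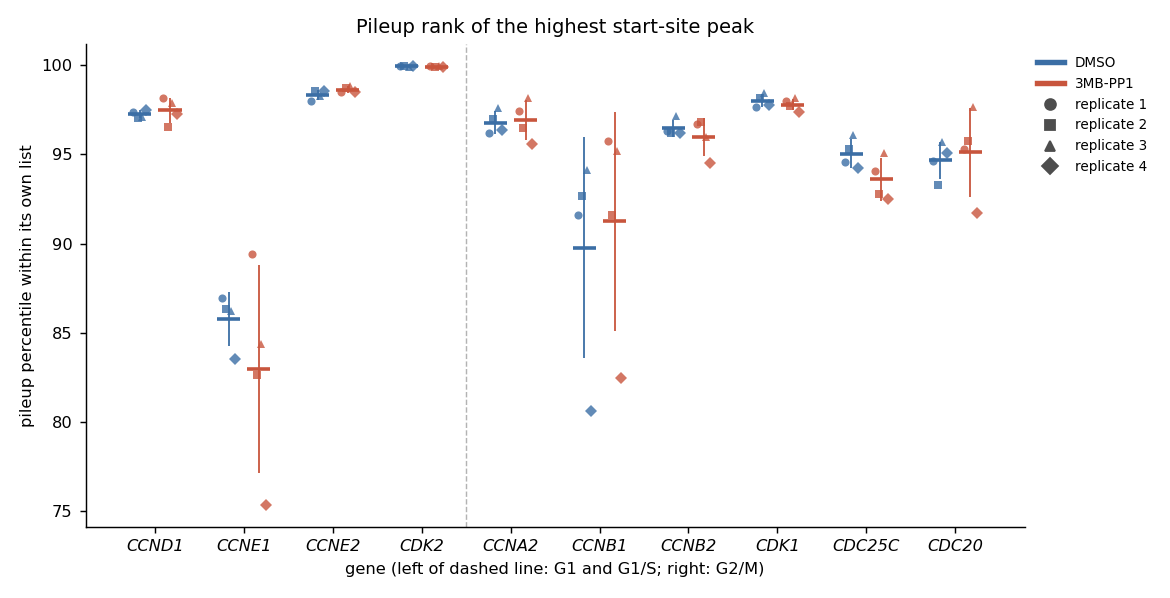
Pileup percentile of the highest start-site peak within its own list (y axis, from about 74 to 101 and not from 0) for each gene (x axis), with 1 point per library and the mean and SD of 4 libraries. The groups overlap for all 10 genes, and CCNE1 and CCNB1 have the lowest values, both in replicate 4.

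Taken over the gene and 5 kb either side, the number of peaks in the windows of the 10 genes was 19, 21, 24 and 26 in the DMSO lists and 33, 28, 32 and 26 in the 3MB-PP1 lists. The whole lists of 3MB-PP1 replicates 1, 2 and 3 also held more peaks than any DMSO list. Base pairs under peaks had a lower mean with 3MB-PP1 for 6 genes and a higher mean for CCNE1, CCNB2, CDK1 and CDC25C. The mean was lower for 68.9% of 19395 genes. Every 3MB-PP1 list was lower for CDK2 and CCNA2, where 6.47% of 19395 genes were lower and 1.09% higher. The median difference was -89.6 bp over the 10 genes and -206 bp over all genes. No gene of the 19395 had an adjusted p of 0.05 or less (smallest 0.378), and 1467 had an unadjusted p under 0.05. CDC20 had 3814, 3336, 3504 and 2990 bp with DMSO and 2662, 3055, 2444 and 3134 bp with 3MB-PP1, and the groups overlapped. Its window also holds part of a region at the ELOVL1 gene.

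CDK1 and CDC25C had the largest differences in the other direction, both with overlapping groups. The CDK1 locus had 2710, 2553, 3769 and 5241 bp under peaks with DMSO and 5120, 3341, 6340 and 2897 bp with 3MB-PP1. Odd-numbered replicates differed by 2490.5 bp and even-numbered ones by -778 bp, so the sign was not the same in both. The CDC25C locus had 3045, 3166, 2735 and 4296 bp with DMSO and 4347, 3982, 4766 and 3695 bp with 3MB-PP1. Its difference of 887 bp had an exact permutation p of 0.0857 and an adjusted p of 0.469. Odd-numbered replicates differed by 1666.5 bp and even-numbered ones by 107.5 bp.

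**Figure D4:**
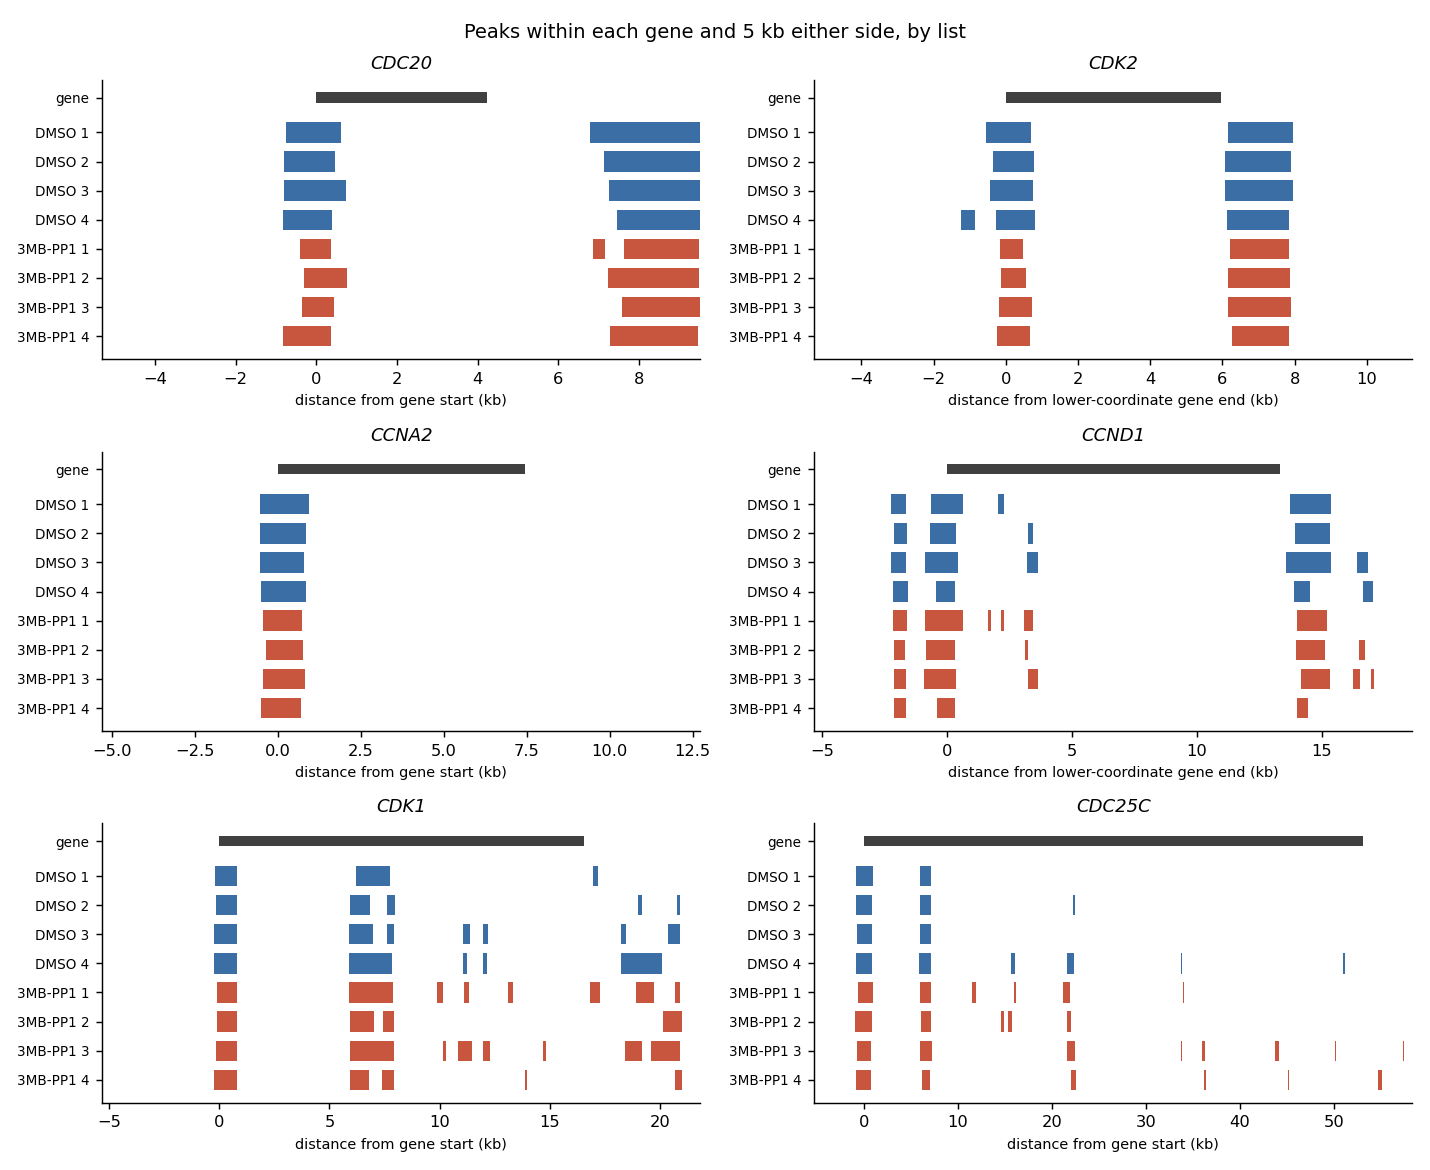
Peaks of each list (coloured bars, 1 row per library, DMSO blue and 3MB-PP1 red) along 6 loci, with the gene as a dark bar and the x axis in kb from the gene start, or from the lower-coordinate end for CDK2 and CCND1. CCNA2 has 1 peak in each list, and CDK1 and CDC25C have between 2 and 8, most of the additional ones small.

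The peaks of the 8 lists merged into 53 regions in the 10 windows. Of these, 16 were called in 8 lists (6.23% of 588244 regions genome-wide), 23 in 1 list and 14 in 2 to 7. 12 of the 16 lay within 1 kb of an annotated end of the cell-cycle gene itself, and 4 did not. None of the 53 was called in 4 of 4 lists of one treatment and 0 of 4 of the other, which held for 0.120% of regions genome-wide for DMSO and 0.148% for 3MB-PP1. Called only in 3MB-PP1 lists were 23 regions (37.9% genome-wide), 20 of them in 1 list and 3 in 2, and only in DMSO lists 3 regions (22.9% genome-wide), each in 1 list. CDC25C, with the longest gene body of the 10, held 9 of the 23, CCNB2 5, CDK1 4, CCNE1 3, and CCND1 and CCNB1 1 each. Their -log10 q was low, 1.05 to 1.90. Their pileup percentiles ran from 2.26 to 96.5 with a median of 35.6, and the highest belonged to the region in CCND1, at 96.5, and to one in CDK1, at 88.3 and 88.4 in its 2 lists. Each 3MB-PP1 library contributed 6 or 7 of them.

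13 of the 16 regions called in every list were shorter on average in the 3MB-PP1 lists, as were 80.7% of such regions genome-wide. In 3 the groups were apart, the CCNA2 and CDC20 start-site regions and the lower-end region of CDK2, and 0 were longer in every 3MB-PP1 list. Genome-wide, 10.9% of regions of all 8 lists were shorter in this way and 0.377% longer. By pileup rank 0 of the 16 separated, against 2.54% lower and 2.84% higher genome-wide. The 4 regions farther from the ends of these genes were 1 upstream of CCND1, 1 inside CDK1, the inner start of CDC25C, which also holds an annotated end of LOC100128966, and the region beside CDC20, which holds an annotated end of ELOVL1. The region upstream of CCND1, chr11:69638921-69639585, was 608, 512, 618 and 573 bp long with DMSO and 550, 411, 470 and 444 bp with 3MB-PP1 (difference -109 bp, exact permutation p = 0.0571, adjusted p = 0.299). The region inside CDK1, chr10:60784213-60786298, was 1518, 1278, 1408 and 1935 bp long with DMSO and 2007, 1578, 2005 and 1434 bp with 3MB-PP1. Its pileup percentiles were 82.7, 64.6, 89.5 and 68.3 with DMSO and 95.5, 86.2, 94.7 and 80.5 with 3MB-PP1, the largest rank difference among these regions at 12.96 points. The groups still overlapped, through DMSO replicates 1 and 3 (exact permutation p = 0.143, adjusted p = 0.626).

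The G2/M genes and the G1 genes were then set side by side as means per library. The mean start-site length over the 6 G2/M genes was 1258, 1170, 1208 and 1166 bp with DMSO and 1004, 1046, 1041 and 1069 bp with 3MB-PP1. Over the 4 G1 and G1/S genes it was 2379, 2357, 2616 and 2220 bp with DMSO and 2187, 2199, 2347 and 1855 bp with 3MB-PP1. The G2/M means did not overlap between treatments (1200 ± 42.7 against 1040 ± 26.9 bp, SD, n = 4 each). Library medians over all 17455 genes did not overlap either, at 1055 to 1233 bp with DMSO and 889 to 1017 bp with 3MB-PP1. The G1 means did overlap (2393 ± 165 against 2147 ± 208 bp, SD, n = 4 each). G1 sums run longer in part because peaks at both gene ends were summed for CCND1 and CDK2. CCNE2 had 1 start-site peak in each list. The G2/M difference was -160 bp and the G1 difference -246 bp, so the G2/M difference was 85.8 bp smaller in size (20.3 bp among odd-numbered and 151 bp among even-numbered libraries). As a share of the DMSO mean the order turned, with -13.4% for G2/M and -10.3% for G1. With CCNA2 and CDK2 left out of both groups the gap in bp was -20.9, the other way. The G1 value, and so the gap in bp, also depended on the gene ends taken. With only the lower-coordinate ends of CCND1 and CDK2, the G1 difference was the smaller in size, so the gap turned. The CCND1 regions differed by 67 bp at the lower-coordinate end and by -382.5 bp at the higher-coordinate end. For CDK2 the regions at these ends differed by -359.25 bp and -132.75 bp. By length rank the means were higher with 3MB-PP1 in both groups, by 3.26 points for G2/M and 1.77 points for G1. For pileup rank the differences were -0.00855 points for G2/M and -0.574 points for G1, 0.566 points apart. No test was made on these means, since the genes were chosen with results of these data known. The gaps in bp and in pileup rank were smaller than the SD between DMSO libraries of the G2/M minus G1 value, 154 bp and 1.09 points.

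Of 25 other cell-cycle genes, 20 had a start-site peak in all 8 lists. CCNB3, a meiotic B-type cyclin, had one in 0 lists and at most 201 bp under peaks in its whole window. CDKN1A, encoding the inhibitor p21, had none at its outermost annotated start, but its window held 3233 to 4085 bp under peaks with DMSO and 2862 to 3381 bp with 3MB-PP1. CDKN1C (p57) had a start-site peak in 4 lists, and CCNA1 and CDC25B in 7. Among the 23 with a start-site peak in any list, 17 had a shorter mean with 3MB-PP1, with a median difference of -134.25 bp. For 2 of them every 3MB-PP1 list was shorter. CDKN1B, encoding the inhibitor p27, was 2876, 2797, 2786 and 2787 bp with DMSO and 2698, 2539, 2740 and 2712 bp with 3MB-PP1, although by length rank it was higher in every 3MB-PP1 list. CKS1B, a small CDK-binding protein, was 2523, 2348, 2467 and 2411 bp with DMSO and 1360, 1354, 2343 and 1508 bp with 3MB-PP1. Its difference of -796 bp exceeded that of all 10 genes above, and 3MB-PP1 replicate 3 alone lay near the DMSO values. Neither passed adjustment over all genes (adjusted p = 0.296 by the exact permutation test).

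The genes whose start-site lengths over the 8 lists were closest to those of CCNB1, among 11448 genes with a peak in all of them, were RBM43, YIPF4 and MDC1. Their mean absolute log2 differences from CCNB1 were 0.0432, 0.0852 and 0.0874.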

How the data were processed

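ATAC-seq was performed on 50000 cells per reaction, per the labels' protocols. Peaks were called with MACS2 on build hg38, per the submitters' processing notes, which also name DESeq2 with no role; versions, aligner, read filters and any Tn5 shift are not given in the sources used here. Each library has its own list. The deposited pileup is a signal (coverage) with no stated scaling, the deposited -log10 p and -log10 q are each peak's own, the deposited fold is a ratio to background within a library, and deposited lengths are in bp. These are the authors' values, used within a list only. How peaks were called and how deep each library was could change lengths and counts.

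Genes came from RefSeq (GRCh38.p14), and strand from 22156 promoters of 15813 protein-coding genes. The measures were the summed start-site length (1 kb window), the within-list percentile of the highest pileup or longest length, base pairs covered in each gene and 5 kb either side, and regions merged over the 8 lists. Groups were compared by an exact permutation of libraries, two-sided, with Benjamini-Hochberg adjustment over all genes or regions. The p-values measure only the spread between these libraries. The 10 genes, the 25 other genes, the markers and the motifs were chosen with earlier results of these data known. Named were all 10 genes, those of the 25 with a start-site peak in fewer than 8 lists or with groups that do not overlap in start-site length, and the 3 genes closest to CCNB1 in length. Alternatives were other windows and flanks, a -log10 q of at least 5, every list held to its 150577 most certain peaks, rank by -log10 p, length as a percentile, each library left out, and a replicate block. Added after seeing the data were a single gene end, every listed start, the longest single peak, and odd or even replicates alone. The functions were tested on simulated data. The work used bedtools 2.31.1, scipy 1.17.1, numpy 2.4.6, matplotlib 3.10.9 and pandas 2.3.3 under Python 3.11.15.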

Additional observations from a re-analysis of the deposited data

Results flagged for a closer look

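In DMSO replicate 1 the start-site peak of CCNB1 was 909 bp long, and the other 3 DMSO libraries lay between 694 and 729 bp, so the gap took up 0.837 of the group's range. The covered length of the CCNB1 locus gave the same 909 bp, since that peak was the only one in its window. The pileup percentile of CCNB2 reached 97.2 in DMSO replicate 3, while the rest of the group lay between 96.2 and 96.3, a gap of 0.877 of the range. These 3 came from 60 groups and measures examined for a library standing apart (Dixon's test at 95%), which chance gives in about 1 of 20 groups.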

How the results depend on the processing

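Of 320 alternative values for single genes, 272 kept their direction and side of an unadjusted p of 0.05. All 10 genes kept a start-site peak in 8 lists under the other windows and equal list length, and 5 with a -log10 q of at least 5 (CDK2 through the peak at RAB5B). The number shorter in every 3MB-PP1 list, 3, was 0 by length percentile, 2 with the longest single peak, 3 to 5 without 1 library (5 without 3MB-PP1 replicate 3, where 14.2% of all genes were shorter in every list), 7 in odd-numbered replicates alone (36.3% of all genes) and 5 in even-numbered ones (31.3%). The number lower in pileup rank, 0, was 1 with equal list length, 0 to 1 without 1 library and 4 in even-numbered replicates (24.3% of all genes). The number with less covered length, 2, was 0 in the gene alone, 1 with 10 kb either side and 2 to 4 without 1 library (4 without DMSO replicate 4). For covered length, the share of all genes under these settings was not computed.

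By length percentile the difference was positive for CCND1 (1.63), CCNE1 (3.07), CCNE2 (0.766), CDK2 (1.59), CCNA2 (2.47), CCNB1 (5.18), CCNB2 (4.26), CDK1 (6.01) and CDC25C (2.26) in lists whose median peak was shorter with 3MB-PP1. The percentile ranks the longest peak, so for CCND1 and CDK2 it also leaves the sum, and the longest peak in bp differed by -243.75 and -132.75 (p = 0.0571 by exact permutation for CDK2). CCND1 length was 67 bp longer with a 250 bp window or a single gene end, and CCNE1 29.75 bp longer with 2.5 kb. Without 1 library, length differences ran from -683.25 to 9.08 bp for CCND1 (positive without 3MB-PP1 replicate 4) and from -219.5 to 105.5 bp for CCNE1. Rank differences changed sign with equal list length for CCND1 (-0.24), CCNA2 (-0.37) and CDC20 (-0.20), with rank by -log10 p for CCND1 (-1.64) and CCNE1 (0.42), with a -log10 q of at least 5 for CCNE2 (-7.23) and CCNA2 (-14.7), and with every listed start for CDC25C (0.033). Without 1 library they ran from -0.01 to 0.53 for CCND1, -0.28 to 0.58 for CCNA2, -1.56 to 4.41 for CCNB1, -0.74 to 0.028 for CCNB2 and -0.41 to 1.58 for CDC20. The cause was not tested.

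Same-numbered libraries correlated at 0.119, 0.0261, 0.0770 and 0.147 in their deviations of log2 start-site length, not all over 0.1, so the numbers were not taken to pair the samples. With the replicate block, 7 genes were shorter in 4 of 4 same-numbered pairs (23.8% of all genes) and 1 had a lower pileup rank (10.4%). The block's smallest p, 0.125, cannot reach 0.05. Without 1 library p rose to 0.0571 for CCNA2 (DMSO replicate 1 or 3MB-PP1 replicate 2) and for CDC20 (any DMSO replicate). Read depth and signal below each list's q limit are not seen in these lists, so a missing call is not closed chromatin.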
